A study of Homo sapiens with 24 samples.

Results

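Human embryonic stem cells (hESCs) in which the chimpanzee ortholog had taken the place of the human enhancer HAR123 (cHAR123) were compared, as day-5 neuroectoderm, with neuroectoderm from unedited hESCs that carry the human sequence (hHAR123). Members were the libraries whose count columns bear these labels at this stage, 3 of cHAR123 and 3 of hHAR123, which are 6 of the 24 libraries sequenced, and they were described across all genes. The 24 libraries cover 4 genotypes, namely hHAR123, cHAR123, mHAR123 (the mouse ortholog in the same place) and HAR123-KO (the element deleted), each as undifferentiated hESCs and as neuroectoderm with 3 libraries per genotype and stage. All lines derive from H9, an established hESC line, so every group shares 1 genetic background and differs from hHAR123 by an edit made with CRISPR-Cas9. Neuroectoderm was made by 5 days of culture with Noggin at 500 ng/ml, which blocks BMP signalling, and SB431542 at 10 uM, which blocks Activin and Nodal receptors, and this treatment was common to all 4 genotypes. According to the paper, every genotype, the unedited one included, is represented by a pair of clones. With 3 libraries per group, some libraries of a group would then share a clone. The clone behind each library is not given in the sources used here. An effect of the edit and a property of a clone, edited or unedited, therefore cannot be told apart. Nothing in the labels says that the 3 libraries of a group came from separate differentiations, so p-values measure the spread between these libraries.

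Human accelerated regions are stretches of DNA that were conserved across vertebrates and then changed quickly on the human lineage, and many of them act as enhancers in the developing nervous system. HAR123 lies in an intron of SMG6, which encodes an endonuclease of nonsense-mediated RNA decay. Neuroectoderm is the layer of cells from which the brain and spinal cord form, and at its edge, the neural plate border, cells exposed to BMP and WNT signals become neural crest, a migratory population that gives rise to sensory neurons, glia and pigment cells. The dorsal midline of the closing neural tube, the roof plate, secretes BMP and WNT ligands itself, whereas low WNT activity at the front of the plate permits forebrain and eye-field genes.

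Total counts were 21022748 to 24198289 in the hHAR123 and 22303658 to 24986111 in the cHAR123 neuroectoderm libraries, and mitochondrial genes took 2.16% to 2.21% and 2.31% to 2.34% of them. On log2 CPM (counts scaled to the library's total) over 22297 genes, the mean Euclidean distance was 50.27 between cHAR123 libraries, 51.58 between hHAR123 libraries and 63.08 between the groups, so that the groups lay farther apart than their replicates. The cHAR123 libraries were 56.77 from mHAR123 and 97.61 from HAR123-KO. Neuroectoderm markers were high in both groups as a sum. The summed level of PAX6, SOX1, SOX2, NES, OTX2 and LHX2 was 2848 to 2884 CPM in hHAR123 and 2756 to 2792 CPM in cHAR123 neuroectoderm against 665 to 696.9 CPM in hHAR123 hESCs. LHX2 itself was low, at 1.45 to 2.31 CPM in hHAR123 and 0.8 to 1.27 CPM in cHAR123 neuroectoderm. The endoderm markers SOX17, FOXA2 and GATA6 had at most 3 counts in every neuroectoderm library of both groups. HAR123 itself is intronic and is not read by counts over exons, so the genotype of a library could not be checked on the edited element. The study's supplementary gene list for this stage appears to name the chimpanzee and mouse genotypes the other way round from the count columns, which was not tested here, and the column labels were followed. Labels were compared across stages through the genes themselves. Of 33 genes that differed between the cHAR123 and mHAR123 columns in hESCs (0.158% of 20950 tested), 23 were tested in neuroectoderm, of which 22 had the same sign and 14 were called in the same direction there, with 0 called in the opposite one. That comparison tells whether both stages are labelled alike, not which label is right. The mHAR123 level is given below for some of the named genes only, with medians over the called genes.

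Of 21275 genes tested, 111 were up-regulated (0.522% of genes tested) and 97 down-regulated (0.456%, together 0.978%) in cHAR123 neuroectoderm, with thresholds of 0.01 on the adjusted p and 1 on the absolute log2 fold change (edgeR quasi-likelihood test, Benjamini-Hochberg adjustment). Large increases were seen in the border and crest transcription factor genes PAX7, FOXD3 and TFAP2B, with log2 fold changes of 2.68, 2.4 and 2.08. The largest losses were of another kind, with the histone gene H4C13, the non-coding RNAs LINC01515 and LINC01090 and the zinc-finger gene ZNF300 nearly absent. The median log2 fold change of all genes tested was -0.01. The smallest absolute change called was 1.01, that of SLFN12. In all 111 up-regulated and all 97 down-regulated genes the groups did not overlap, so a lack of overlap is not particular to any called gene named below. The make-up of the lists is given as counts, with 95 of the 111 up-regulated genes (85.6%) but 32 of the 97 down-regulated genes (33%) were protein coding, against 67.7% of all genes tested. Long non-coding RNAs numbered 11 and 44. The median change was 1.35 among up-regulated and -1.54 among down-regulated genes. With the adjusted p alone and no limit on fold change, 1256 genes were higher (5.9% of genes tested) and 849 lower (3.99%), so most differences that passed the test were small.

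**Figure D1:**
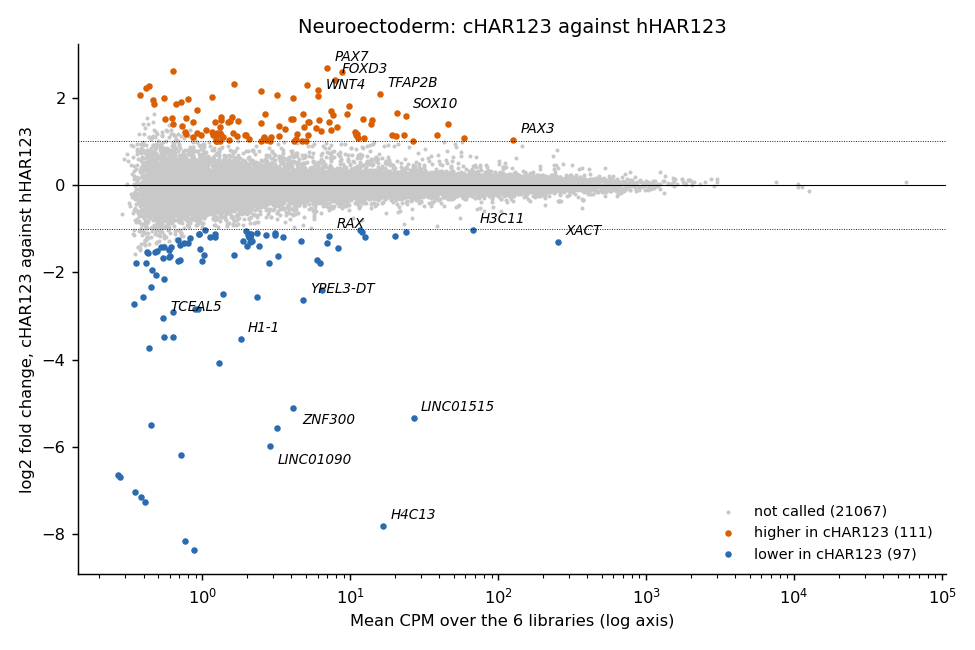
Each point is a gene, placed by its mean level over the 6 neuroectoderm libraries (CPM, log axis) and its log2 fold change in cHAR123 against hHAR123. The 111 up-regulated genes (orange) stay under a change of 3, whereas several of the 97 down-regulated genes (blue) lie far lower, H4C13 at -7.82, and values of the lowest-expressed among them depend on the prior count of the fit.

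PAX7, a paired-box factor of the neural plate border (ENSG00000009709, chr1:18630846-18748866), rose most among genes with a mean of at least 1 CPM and a symbol. Its level was 1.85, 1.98 and 1.84 CPM in the hHAR123 libraries and 12.2, 11.6 and 12.3 CPM in the cHAR123 libraries. The groups are far apart relative to the spread within them, and the log2 fold change was 2.68 (SE 0.12, adjusted p = 5.1e-21). FOXD3, a forkhead factor that specifies neural crest and is also used by pluripotent cells (ENSG00000187140, chr1:63322567-63325128), was at 2.28, 2.69 and 2.52 CPM in hHAR123 and 12.8, 13.9 and 12.6 CPM in cHAR123, a log2 fold change of 2.4 (SE 0.11, adjusted p = 2.13e-20). In hESCs the same gene stood at 39.1 CPM in hHAR123 and 35.9 CPM in cHAR123 (means, n = 3), so in both genotypes its level was lower at day 5, and in cHAR123 less so. The bases before the RefSeq starts of both genes are shown because they rose most among the border and crest factors, with CpG dinucleotides in capitals, 5′ to 3′ in the direction of the gene (RefSeq, GRCh38.p14).
PAX7 (chr1:18630596-18630845, forward strand): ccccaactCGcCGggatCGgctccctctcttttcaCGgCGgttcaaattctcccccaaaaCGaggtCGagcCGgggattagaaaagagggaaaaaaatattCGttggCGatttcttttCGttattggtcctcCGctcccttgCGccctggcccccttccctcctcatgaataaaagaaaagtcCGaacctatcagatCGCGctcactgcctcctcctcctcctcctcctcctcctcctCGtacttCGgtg
FOXD3 (chr1:63322317-63322566, forward strand): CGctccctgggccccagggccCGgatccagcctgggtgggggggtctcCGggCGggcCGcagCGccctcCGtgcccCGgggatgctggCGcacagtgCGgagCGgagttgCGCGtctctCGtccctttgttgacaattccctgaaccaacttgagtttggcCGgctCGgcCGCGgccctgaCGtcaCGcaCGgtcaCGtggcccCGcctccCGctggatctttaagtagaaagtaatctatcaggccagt
These 250 bases held 18 and 24 CpG.

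Neural crest genes as a list had 14 members tested, of which 7 were up-regulated and 0 down-regulated, with a median log2 fold change of 0.85 against -0.01 for all genes. Besides FOXD3, these were TFAP2B, SOX10, SNAI2, ETS1, POU4F1 and EDNRB. TFAP2B, an AP-2 factor of the crest, was at 6.56, 5.83 and 6.15 CPM in hHAR123 and 26.9, 24.9 and 25.5 CPM in cHAR123, a log2 fold change of 2.08 (SE 0.08, adjusted p = 2.47e-23). SOX10, which maintains crest progenitors and drives glial and pigment fates, was at 11.7, 11.7 and 12.3 CPM in hHAR123 and 34.8, 33.8 and 37.5 CPM in cHAR123, with a change of 1.59 (SE 0.07, adjusted p = 4.12e-22). In neither gene did the groups overlap, as in every up-regulated gene. SNAI2, a zinc-finger repressor of epithelial genes, rose from 2.09, 2.48 and 1.88 CPM to 6.28, 5.92 and 6.05 CPM. ETS1 rose by 1.41 and POU4F1, a POU factor of sensory neurons, by 1.41 on the log2 scale. The endothelin receptor gene EDNRB was nearest the fold threshold, at 1.76, 1.94 and 1.62 CPM and 2.96, 3.97 and 3.95 CPM, a change of 1.04 (SE 0.18, adjusted p = 2.38e-05). NGFR at 0.67, TFAP2A at 0.62 and SOX9 at 0.14 passed the adjusted p but not the limit on fold change. SNAI1 was at 0.01 (adjusted p = 0.955) and SOX5 at -0.02 (adjusted p = 0.767), and TWIST1 had too few counts to be tested. In bulk RNA more cells of a type and more RNA per cell cannot be told apart. The summed level of FOXD3, SOX10, TFAP2A and TFAP2B was 25.87 to 27.21 CPM in hHAR123, 80.37 to 85.33 CPM in cHAR123, 116.6 to 122.9 CPM in mHAR123 and 920.4 to 936 CPM in HAR123-KO neuroectoderm.

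Neural plate border genes showed 6 of 13 tested members up-regulated and 0 down-regulated, with a median of 0.56. PAX3, a paired-box factor of the dorsal neural tube and the most highly counted of the 6, was at 87, 80.9 and 82.2 CPM in hHAR123 and 170.0, 164 and 171 CPM in cHAR123, a log2 fold change of 1.03 (SE 0.04, adjusted p = 3.97e-25). TFAP2C, an AP-2 factor, changed by 1.27 (SE 0.11, adjusted p = 1.5e-12). The homeobox genes MSX1 and MSX2, which respond to BMP, stood at 3.82 ± 0.351 and 1.68 ± 0.188 CPM in hHAR123 and at 8.85 ± 0.151 and 3.52 ± 0.356 CPM in cHAR123 (mean ± SD, n = 3). ZIC1, a zinc-finger factor of the dorsal neural tube, was at 17.4, 17.8 and 18 CPM in hHAR123 and 37.3, 34 and 35.4 CPM in cHAR123. ZIC2 at 0.2, ZIC4 at 0.56 and ZIC5 at 0.19 passed the adjusted p alone. DLX3, DLX5 and DLX6, homeobox genes of the non-neural side of the border, were at -0.13, -0.23 and 0.08 and did not pass. Without 1 library, ZIC1 fell to 0.98 (without cHAR123 replicate 1) or 1 (without hHAR123 replicate 1) and MSX2 to 0.99 (without cHAR123 replicate 2), not above the fold threshold.

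BMP ligand genes included 4 up-regulated members of 12 tested and 0 down-regulated, with a median of 0.40. BMP4, a main signal of the dorsal ectoderm, was at 0.999, 0.827 and 0.982 CPM in hHAR123 and 2.28, 2.7 and 2.69 CPM in cHAR123, a log2 fold change of 1.46 (SE 0.22, adjusted p = 2.04e-06). BMP5 changed by 1.16 (SE 0.14, adjusted p = 2.4e-08). GDF7, a roof plate signal for dorsal interneurons, was at 6.71, 7.69 and 7.43 CPM in hHAR123 and 15.4, 15 and 15.2 CPM in cHAR123, with a change of 1.07 (SE 0.09, adjusted p = 6.19e-13). The 4 ligands stood higher in every cHAR123 library than in any hHAR123 library, as did all 111 up-regulated genes. GDF10 was the weakest of them at 1.02 (SE 0.27, adjusted p = 0.00563), and its call was lost in 4 of the 6 fits that left out 1 library, where the change was 0.77 to 1.07. BMP2 stood at 27.1, 27.7 and 27.7 CPM and 42.9, 45.4 and 41.1 CPM and passed the adjusted p at a change of 0.66, under the fold limit. Of 10 BMP antagonists and 16 receptors and response genes tested, 0 were called, with medians of 0.06 and 0.05. By the adjusted p alone 1 antagonist was higher, and 5 receptor and response genes were higher and 2 lower. The higher ones were led by ID3 at 0.93 and ID1 at 0.92, helix-loop-helix inhibitors that BMP signalling induces, just under the fold limit. ID1 was at 9.42, 9.09 and 9.99 CPM in hHAR123 and 17.6, 16.9 and 18.8 CPM in cHAR123, whereas their paralog ID4 went the other way, from 98, 96.3 and 96.3 CPM to 63.7, 60.8 and 64.8 CPM, a change of -0.6.

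WNT genes were up-regulated at several levels of the pathway. Of 14 ligands tested, 3 rose and 0 fell, with a median of 0.24. WNT4 was at 2.71, 2.02 and 2.48 CPM in hHAR123 and 10.1, 8.79 and 10.3 CPM in cHAR123, a log2 fold change of 2.04 (SE 0.13, adjusted p = 1.75e-16). WNT1, which marks the dorsal midline and the border of midbrain and hindbrain, was at 6.66, 8.06 and 7.64 CPM in hHAR123 and 21.2, 21.1 and 19.6 CPM in cHAR123, with a change of 1.48 (SE 0.08, adjusted p = 7.7e-18). In both, the cHAR123 libraries lay well above the hHAR123 libraries. WNT10B changed by 1.01 (SE 0.14, adjusted p = 6.38e-07), and fell under the fold limit, to 0.96 and 0.88, without replicate 2 of cHAR123 or of hHAR123. Of 18 receptor genes 1 rose, FZD10, from 4.76, 4.42 and 4.83 CPM to 14, 13.4 and 15.4 CPM (log2 fold change 1.62). The divergent non-coding neighbour of FZD10, FZD10-AS1, was up-regulated too, by 1.44, and was named after its value was seen. Among 20 antagonists and targets, 3 rose and 0 fell, with a median of 0.23. These were APCDD1, a membrane inhibitor, at 1.51, DKK1, a secreted inhibitor of LRP co-receptors, at 1.28, and DACT1, which binds Dishevelled, at 1.22. The list also holds targets, of which 5 more members were higher and 2 lower by the adjusted p alone.

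Genes of the midbrain, hindbrain and roof plate had 2 of 11 tested members up-regulated, WNT1 and LMX1B, and a median of 0.70. LMX1B, a LIM-homeodomain factor, was at 3.85, 3.84 and 3.84 CPM in hHAR123 and 10.8, 9.76 and 10.8 CPM in cHAR123, with a log2 fold change of 1.45 (SE 0.11, adjusted p = 4.81e-14). By the adjusted p alone, 7 of the 11 were higher and 0 lower, among them PAX2 at 0.95, IRX1 at 0.88, IRX3 at 0.85 and IRX2 at 0.7. EGR2, a factor of hindbrain segments, was at -0.31 (adjusted p = 0.272). Of 39 HOX genes, 0 had enough counts to be tested.

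Of 13 forebrain and eye-field genes tested, 1 was down-regulated and 0 up-regulated, with a median of -0.32. RAX, a homeobox factor of the eye field, was at 9.09, 10.4 and 10.4 CPM in hHAR123 and 4.56, 4.48 and 4.26 CPM in cHAR123, a log2 fold change of -1.16 (SE 0.11, adjusted p = 3.25e-11). By the adjusted p alone, 7 members were lower and 1, OTX1, higher at 0.37. FEZF1, a repressor of the early forebrain, was at 90.0, 89.5 and 87.5 CPM and 61.2, 62.8 and 60.3 CPM, and SIX3 was at 5.42, 4.59 and 4.87 CPM and 2.44, 3.21 and 2.96 CPM. Both passed the adjusted p, at log2 fold changes of -0.52 and -0.77, inside the fold limit, while EMX2 at 0.07, LHX5 at 0.04 and OTX2 at 0.09 did not pass. Of 12 pan-neural genes, 0 were called and the median was -0.10, with SOX2 at 549, 549 and 528 CPM in hHAR123 and 483, 492 and 479 CPM in cHAR123 and PAX6 at 453, 445 and 445 and 494, 496 and 486 CPM. Those are small shifts in opposite directions, -0.15 for SOX2 and 0.15 for PAX6, that both passed the adjusted p, as did 7 lower and 3 higher members in all. Of the markers that the study used for subsets of neural progenitor cells, 1 of 4 for the third subset (PAX3) was up-regulated.

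**Figure D2:**
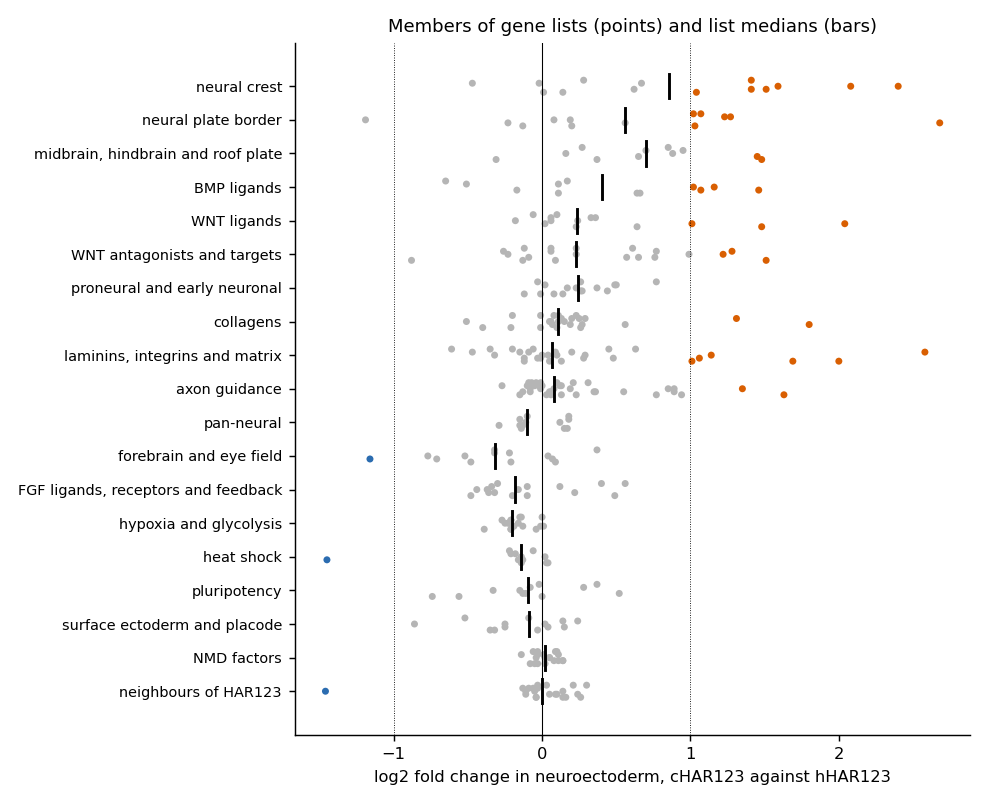
Points are members of 19 gene lists, placed by their log2 fold change in cHAR123 against hHAR123 neuroectoderm, orange where up-regulated, blue where down-regulated and grey where not called, and black bars are list medians. Medians run from 0.85 for neural crest to -0.32 for forebrain and eye field.

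Several genes of the cell surface and matrix were up-regulated. Of 30 laminin, integrin and other matrix genes, 6 rose, 0 fell and the median was 0.07. RELN, a large secreted glycoprotein that guides migrating neurons, was at 3.23, 2.48 and 1.96 CPM in hHAR123 and 14.9, 14.9 and 15.3 CPM in cHAR123. Its log2 fold change was 2.58 (SE 0.12, adjusted p = 4.13e-21). That was second to PAX7 among all called genes with a mean of at least 1 CPM and a symbol. The integrin subunit genes ITGA8 and ITGA9 changed by 2 (SE 0.15, adjusted p = 5.15e-14) and 1.06 (SE 0.14, adjusted p = 4.23e-07), the protease gene ADAMTS15 by 1.69, the hyaluronan synthase gene HAS2 by 1.14 and LAMA4 by 1.01. ITGA9 and LAMA4 went under the fold limit when 1 hHAR123 library was left out, to 0.94 at the lowest in each. Of 25 collagen genes 2 rose, COL11A2 from 5.09, 4.46 and 3.71 CPM to 15.8, 14.5 and 15.2 CPM and COL5A3 by 1.31, and 1 of 16 cadherin genes, CDH6, which is expressed by premigratory crest, went from 24.2, 23.7 and 24.6 CPM to 54.1, 52.9 and 51.2 CPM. The spread between replicates of CDH6 was small against this difference. Among 37 axon guidance genes the netrin receptor gene UNC5C changed by 1.63 (SE 0.13, adjusted p = 3.63e-13) and the semaphorin gene SEMA3C by 1.35 (SE 0.16, adjusted p = 2.55e-08), and 0 fell. Of 16 proneural and early neuronal genes, 0 were called by edgeR, with a median of 0.25, and by the adjusted p alone 4 were higher, NEUROG1 at 0.77, EBF3 at 0.5, ONECUT2 at 0.49 and NHLH1 at 0.44, with 6 higher and 0 lower at an unadjusted p under 0.05, against 15.3% and 13.7% of all genes.

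The other large increases were in genes of several functions. HELT, a bHLH repressor of midbrain progenitors, was at 0.618, 0.661 and 0.384 CPM in hHAR123 and 3.12, 2.41 and 2.65 CPM in cHAR123, a change of 2.31 (SE 0.25, adjusted p = 1.19e-09). KANK4, a scaffold protein of the cell cortex, was at 2.47, 2.23 and 1.92 CPM and 9.04, 10.4 and 10.3 CPM, a change of 2.18 (SE 0.13, adjusted p = 2.27e-17). Both were separated between the groups in every library, like every up-regulated gene. TSPYL5, of the nucleosome assembly protein family, was at 2.24, 0.992 and 2.05 CPM in hHAR123 and 9.45, 8.07 and 7.89 CPM in cHAR123. CALHM2, an ion channel gene, was at 0.904, 0.827 and 1.02 CPM and 4.36, 3.59 and 4.26 CPM, and TBX15, a T-box gene otherwise known from limb and skeletal mesenchyme, at 1.19, 1.24 and 1.24 CPM and 4.64, 4.99 and 5.74 CPM. TSPYL5, CALHM2 and TBX15 were up-regulated in cHAR123 hESCs as well, with log2 fold changes of 2.22, 1.7 and 1.51 there. TBX15 was the only called gene of 6 mesoderm genes tested, and the defining mesoderm markers TBXT, TBX6, MESP1 and HAND1 summed to 2.727 to 2.861 CPM in hHAR123 and 2.121 to 2.958 CPM in cHAR123, with 2 of the 4 in each group at no more than 3 counts in every library of that group.

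The levels of these genes were set beside the other edited genotypes, whose comparisons use the same cHAR123 or hHAR123 libraries. Medians against hHAR123 were taken over those called genes that were tested in each genotype. For the up-regulated genes the median log2 fold change was 1.28 in mHAR123 and 3.16 in HAR123-KO, beside 1.35 in cHAR123. For the down-regulated genes it was -1.36 and -1.63, beside -1.54. The hHAR123 libraries are common to these medians, so a deviation of hHAR123 would give each genotype the same sign. In the direct test against mHAR123, 12 of the 111 up-regulated genes were called higher in cHAR123 and 0 lower. Of the 97 down-regulated genes, 11 were called lower and 1 higher. Over all genes tested, 0.156% were called higher and 0.104% lower. Most of the called genes were thus not called between cHAR123 and mHAR123. PAX7 was at 10.1, 9.48 and 9.56 CPM in mHAR123 and 127, 121 and 125 CPM in HAR123-KO neuroectoderm. For FOXD3 the values were 15.2, 21.7 and 19.9 CPM and 188, 188 and 187 CPM, and for WNT4 4.27, 4.35 and 5.54 CPM and 40.0, 38.5 and 36.5 CPM. In the 3 genes cHAR123 thus lay between hHAR123 and HAR123-KO, and in the direct test against HAR123-KO the log2 fold changes of cHAR123 were -3.38 (SE 0.05, adjusted p = 4.58e-57) for PAX7, -3.85 (SE 0.04, adjusted p = 4.67e-63) for FOXD3 and -1.99 (SE 0.07, adjusted p = 1.15e-35) for WNT4. Against HAR123-KO, 785 genes were higher (3.7% of 21189 tested) and 828 lower (3.91%) in cHAR123 neuroectoderm. Neural crest genes were lower in cHAR123 than in HAR123-KO for 10 of 14 tested, with a median of -2.27, and forebrain and eye-field genes were higher for 10 of 13, with a median of 1.69. RAX, at 4.56, 4.48 and 4.26 CPM in cHAR123, was at 0.775, 0.208 and 0.695 CPM in HAR123-KO, a difference of 2.97 (SE 0.22, adjusted p = 3.28e-18), and FEZF1 was at 61.2, 62.8 and 60.3 CPM against 8.96, 7.78 and 9.15 CPM. Of the 111 up-regulated genes, 73 were called lower in cHAR123 than in HAR123-KO and 10 higher, beside the 3.91% and 3.7% of all genes tested. The mean in cHAR123 was above that in HAR123-KO in TSPYL5, CALHM2, ASPG and FOXE3, among others. TSPYL5 was at 7.28, 8.07 and 7.11 CPM in HAR123-KO, where the difference of cHAR123 was 0.17 (SE 0.1, adjusted p = 0.161), and FOXE3 was at 1.64, 1.31 and 1.97 CPM in cHAR123 and 0.689, 0.291 and 0.531 CPM in HAR123-KO, a difference of 1.68 (SE 0.29, adjusted p = 1.58e-06).

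**Figure D3:**
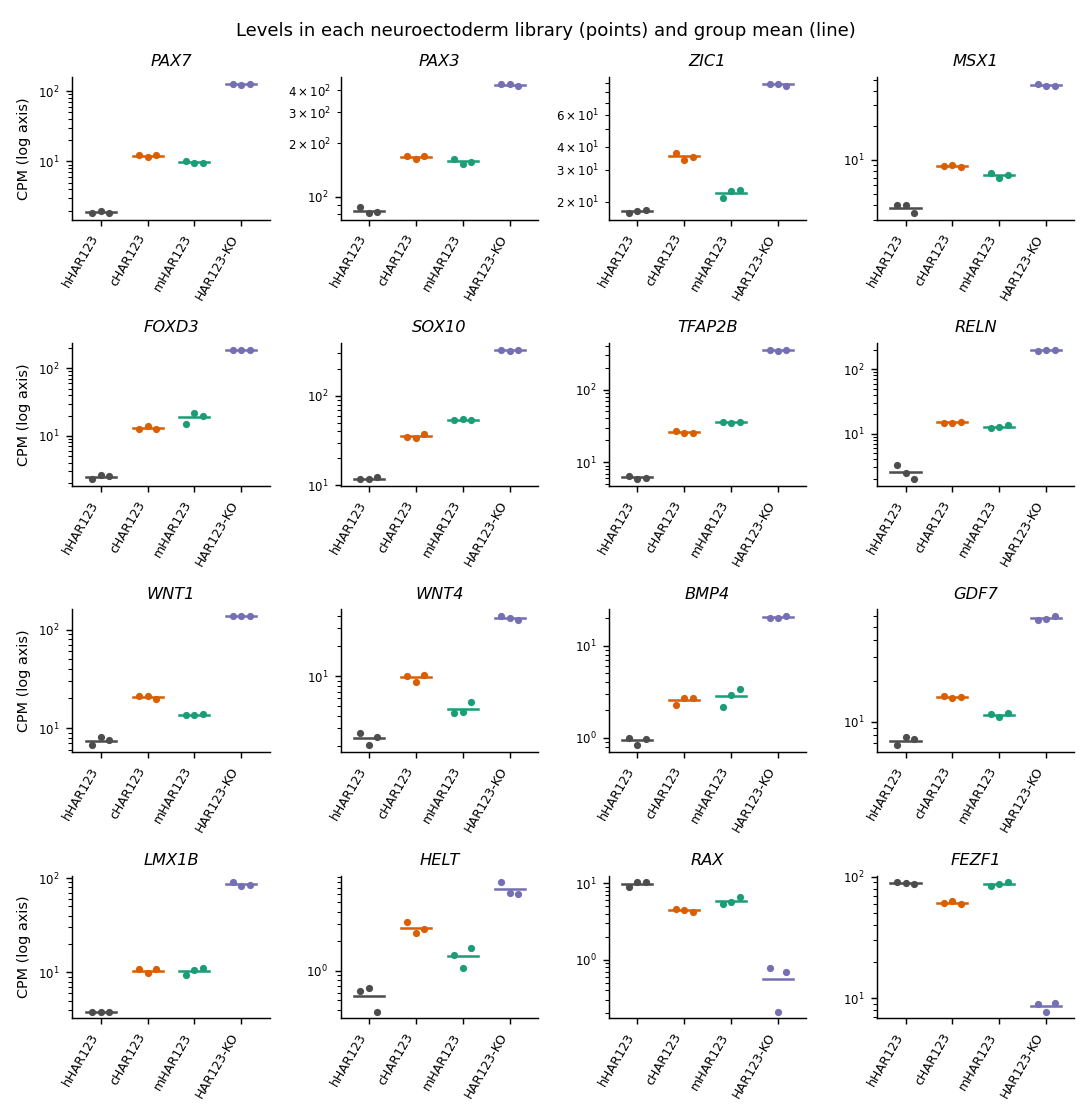
Levels in CPM (log axis, scaled per gene) of 16 genes in each neuroectoderm library of the 4 genotypes (points) with group means (lines). In the first 14 genes cHAR123 (orange) lies above hHAR123 (grey) and below HAR123-KO (purple), for example PAX3 at 164 to 171 CPM between 80.9 to 87.0 and 422 to 436 CPM, and in RAX and FEZF1 the order is the reverse.

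The largest decreases in cHAR123 neuroectoderm were in genes that were nearly lost. H4C13, one of several genes for histone H4 (ENSG00000275126, chr6:27873148-27873534), was at 31.2, 33.1 and 35.8 CPM in hHAR123 and 0.08, 0.127 and 0.224 CPM in cHAR123, where the libraries held 2, 3 and 5 counts. That is a log2 fold change of -7.82 (SE 0.17, adjusted p = 3.24e-33). LINC01515 (ENSG00000228065, chr10:65570338-65880289) was at 57.8, 49.7 and 50.0 CPM in hHAR123 and 1, 1.39 and 1.48 CPM in cHAR123, a change of -5.33 (SE 0.1, adjusted p = 1.75e-34). For LINC01090 the levels were 5.76, 5.33 and 5.98 CPM and 0.16, 0.0845 and 0 CPM, and for ZNF300, a KRAB zinc-finger gene (ENSG00000145908, chr5:150894392-150904983), 8.47, 7.64 and 7.94 CPM and 0.2, 0.296 and 0.179 CPM. Every cHAR123 library of these 4 genes was under 1.5 CPM and every hHAR123 library above 5. The bases before their RefSeq starts are shown for the 3 of them that the table holds, with CpG in capitals as before, and the LINC01515 window lies inside the annotated span of that gene because its RefSeq start is farther in.
H4C13 (chr6:27873535-27873784, reverse strand): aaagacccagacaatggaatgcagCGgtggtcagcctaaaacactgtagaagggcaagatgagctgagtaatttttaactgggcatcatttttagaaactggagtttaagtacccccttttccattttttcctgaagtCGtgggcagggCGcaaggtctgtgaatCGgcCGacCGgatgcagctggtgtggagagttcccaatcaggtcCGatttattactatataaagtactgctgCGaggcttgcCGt
LINC01515 (chr10:65571175-65571424, forward strand): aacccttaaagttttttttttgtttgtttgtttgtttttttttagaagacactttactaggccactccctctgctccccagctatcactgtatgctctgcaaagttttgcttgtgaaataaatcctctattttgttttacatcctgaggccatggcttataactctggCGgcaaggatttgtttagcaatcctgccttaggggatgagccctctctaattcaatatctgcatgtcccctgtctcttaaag
ZNF300 (chr5:150904981-150905230, reverse strand): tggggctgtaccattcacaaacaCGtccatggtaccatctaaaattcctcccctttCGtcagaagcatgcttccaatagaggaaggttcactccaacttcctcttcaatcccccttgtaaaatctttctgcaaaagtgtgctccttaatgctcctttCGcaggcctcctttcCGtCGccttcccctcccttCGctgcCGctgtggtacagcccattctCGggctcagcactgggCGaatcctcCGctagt
These windows held 9, 1 and 10 CpG.

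The other genotypes divided the nearly lost genes into those low in cHAR123 and not in the other edited lines, and those low in each edited line. Whether the latter reflect the edits or the hHAR123 clones was not tested. H4C13 was at 37.3, 38.8 and 37 CPM in mHAR123 and 51, 51.9 and 51.5 CPM in HAR123-KO, LINC01515 at 53.4, 47.5 and 48.1 and 44.8, 44.3 and 44 CPM, and LINC01090 at 7.54, 6.38 and 7.96 and 8.23, 8.24 and 8.21 CPM. For these 3 genes all other groups were close to the hHAR123 level or above it. The difference between cHAR123 and mHAR123 was -8.03 (SE 0.15, adjusted p = 3.1e-39) for H4C13, -5.3 (SE 0.1, adjusted p = 3.1e-39) for LINC01515 and -6.37 (SE 0.28, adjusted p = 3.87e-23) for LINC01090. ZNF300, by contrast, was at 0.654, 0.538 and 0.995 CPM in mHAR123 and 0.474, 0.624 and 0.531 CPM in HAR123-KO, and the difference of cHAR123 from mHAR123 was -1.69 (SE 0.42, adjusted p = 0.00543). YPEL3-DT, a non-coding transcript divergent from YPEL3, was at 8.23, 8.06 and 8.58 CPM in hHAR123, 1.4, 1.35 and 1.21 CPM in cHAR123, 1.08 to 1.16 CPM in mHAR123 and 0.999 to 1.03 CPM in HAR123-KO. The zinc-finger gene ZNF283 was at 11.4, 10.5 and 10.6 CPM in hHAR123 and 2.24, 1.69 and 2.11 CPM in cHAR123, and at 0.692 to 1.12 and 1.96 to 2.76 CPM in the others. H1-1, a linker histone gene, was at 3.71, 3.14 and 3.16 CPM in hHAR123 and 0.28, 0.211 and 0.359 CPM in cHAR123, and at 0.124 to 0.269 and 0.0817 to 0.258 CPM in the others. TCEAL5 followed neither pattern. It was at 0.999, 1.24 and 0.683 CPM in hHAR123 and had at most 3 counts in every cHAR123 library, at least 7.66-fold lower, and it was at 6.39, 5.59 and 5.5 CPM in mHAR123 and 0.164 to 0.291 CPM in HAR123-KO.

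**Figure D4:**
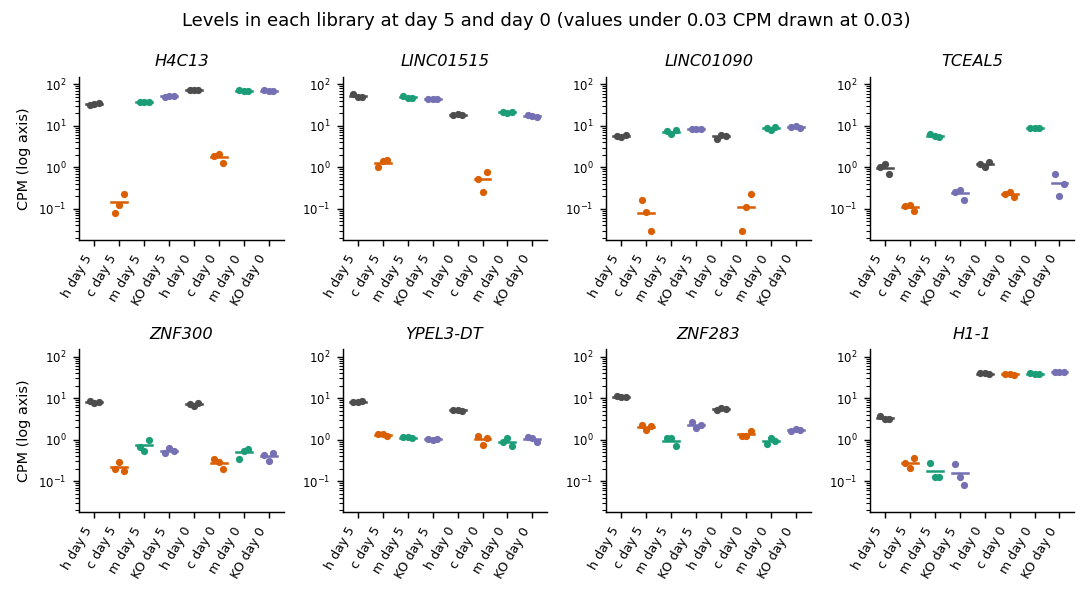
Levels in CPM (log axis) of 8 genes in each library of the 4 genotypes (h, c, m and KO) at day 5 and day 0, with group means as lines. H4C13, LINC01515 and LINC01090 are low in cHAR123 (orange) at both stages and near the hHAR123 level elsewhere, ZNF300, YPEL3-DT and ZNF283 are low in all 3 edited genotypes at both stages, and H1-1 is low in the edited genotypes at day 5 only.

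Of the 97 down-regulated genes, 13 had at most 3 counts in every cHAR123 library, and their fold is given as a lower bound, computed against 3 counts per library. The largest bound was that of ENSG00000286449, a long non-coding RNA on chromosome 19, which was at 1.76, 1.57 and 1.96 CPM in hHAR123 and at 0 counts in the 3 cHAR123 libraries, at least 13.9-fold lower. ENSG00000287460 and REG1A were at least 12-fold and 11.1-fold lower, and ZNF560 was at least 4.76-fold lower. The catalase gene CAT and the cathepsin gene CTSF, named here after their values were seen, were at means of 0.552 and 0.765 CPM in hHAR123 and at least 4.34-fold and 6.01-fold lower. In 10 of the 13 genes every library of mHAR123 and HAR123-KO neuroectoderm was also at 3 counts or fewer. Further decreases among the 10 largest with a mean of at least 1 CPM were FAR2P2 at -1.79 (SE 0.12, adjusted p = 1.09e-15), SLC5A12, a sodium-coupled lactate transporter gene, at -1.71 (SE 0.12, adjusted p = 1.6e-14), and NECTIN3-AS1 at -1.62 (SE 0.16, adjusted p = 2.91e-10). FAR2P2 is a pseudogene with near-identical copies and NECTIN3-AS1 is antisense to another gene, so reads of both could be divided or shared and their values are uncertain. Among the genes with the highest levels, XACT, an X-linked long non-coding RNA of human pluripotent cells that was named after its values were seen, was at 387, 354 and 349 CPM in hHAR123 and 144, 149 and 143 CPM in cHAR123, a change of -1.31.

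Gene families were described from the same fit. Of 61 replication-dependent histone genes 3 fell and 0 rose, with a median of 0.06, and those that fell were H4C13, H1-1 and H3C11. By the adjusted p alone 14 were higher. H3C11, a gene for histone H3, was at 85.8, 91.8 and 93.9 CPM in hHAR123 and 43.6, 43.6 and 44.4 CPM in cHAR123, a log2 fold change of -1.03 (SE 0.04, adjusted p = 4.78e-22), and at 102 to 104 CPM in mHAR123. Histone genes are close copies of each other and reads could be divided among them. Of 230 zinc-finger genes of chromosome 19, 1 rose and 3 fell, with a median of -0.05. ZNF562 rose from 39.1, 36.9 and 38.9 CPM to 83, 79.3 and 76.9 CPM, ZNF283 and ZNF560 are given above, and ZNF829 changed by -1.03 (SE 0.09, adjusted p = 2.62e-12), with -0.95 without cHAR123 replicate 3. Of 12 heat shock genes 1 fell, HSPA6, an inducible HSP70 gene with a near-identical copy, from 11.6, 12.3 and 12.5 CPM to 4.56, 4.78 and 3.86 CPM, and 5 were lower by the adjusted p alone.

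Several pathways had 0 members called in this comparison, and their small differences are given by the adjusted p alone, which 5.9% of all genes passed as higher and 3.99% as lower. Of 18 hypoxia and glycolysis genes, 11 were lower and 0 higher, with a median of -0.20 and a summed level of 7060 to 7281 CPM in hHAR123 and 6601 to 6693 CPM in cHAR123. Of 16 FGF ligands, receptors and feedback genes, 6 were lower and 2, FGFR2 at 0.4 and FGFR3 at 0.49, higher, with a median of -0.18. The lower ones included the feedback genes SPRY1, SPRY2 and SPRY4 at -0.34, -0.3 and -0.48, and ETV5, a transcription factor downstream of FGF receptors, at -0.44. For 9 hedgehog genes 5 were higher and 1 lower with a median of 0.16, and for 17 Notch genes 4 and 2 with 0.10. The higher hedgehog genes included the co-receptor genes BOC at 0.48 and CDON at 0.44, and the 3 higher of 14 retinoic acid genes (0 lower, median 0.19) were CRABP1 at 0.62 and CRABP2 at 0.66, which encode binding proteins, and the retinol carrier receptor gene STRA6 at 0.59. CRABP1 was at 97.6, 109 and 107 CPM in hHAR123 and 156, 161 and 159 CPM in cHAR123. Cell cycle genes had 6 higher and 2 lower of 23 and cytosolic ribosomal protein genes 3 higher and 10 lower of 78. Clustered protocadherins had 5 higher and 0 lower of 51, mitochondrial genes 9 higher and 0 lower of 21, imprinted genes 2 higher and 6 lower of 25, integrated stress response genes 2 higher and 1 lower of 13, and cholesterol synthesis genes 2 higher and 0 lower of 16. Pluripotency genes had 1 higher, ZFP42, and 1 lower, DPPA4, of 12, and of 13 surface ectoderm and placode genes 0 passed, with 1 higher and 4 lower at an unadjusted p under 0.05 (15.3% and 13.7% of all genes) and a median of -0.09. In all lists together 47 genes were called.

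At the locus of the element, HIC1 was the 1 gene called among 22 tested neighbours of HAR123, and 0 rose. HIC1, a zinc-finger repressor first known as hypermethylated in cancer (ENSG00000177374, chr17:2054154-2063241), was at 1.95, 1.16 and 1.2 CPM in hHAR123 and 0.4, 0.761 and 0.359 CPM in cHAR123, a log2 fold change of -1.46 (SE 0.31, adjusted p = 0.000713). The groups did not overlap, but these are low levels, and the call was lost without cHAR123 replicate 3 (-1.28) or hHAR123 replicate 1 (-1.20), the hHAR123 library with the most. In mHAR123 it was at 0.462, 0.455 and 0.692 CPM and in HAR123-KO at 0.603, 0.458 and 0.531 CPM, and the difference of cHAR123 from them was -0.1 (SE 0.38, adjusted p = 0.935) and -0.07 (SE 0.37, adjusted p = 0.894). SMG6, which holds the element in an intron (ENSG00000070366, chr17:2059839-2303785), was at 149.6, 152 and 144 CPM in hHAR123 and 157, 146 and 153 CPM in cHAR123, with overlapping groups and a change of 0.05 (SE 0.03, adjusted p = 0.412). The annotated spans of SMG6 and HIC1 overlap on opposite strands, so reads there could be shared. The median of the neighbours was 0, and 3 were higher and 2 lower by the adjusted p alone, with CLUH at 0.26 and WDR81 at 0.24 the largest. Of 20 factors of nonsense-mediated decay, 0 passed the adjusted p in the edgeR fit, with 5 higher and 1 lower at an unadjusted p under 0.05 (15.3% and 13.7% of all genes) and a median of 0.02.

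The change was then compared with that in hESCs, where the 6 libraries are others and the contrast is the same. In hESCs, 131 genes were up-regulated (0.626% of 20935 tested) and 47 down-regulated (0.225%) in cHAR123. Of the genes up-regulated in neuroectoderm, 13 were also up-regulated in hESCs, 11.7% of the neuroectoderm list and 9.92% of the hESC list. Of those down-regulated, 26 were shared, 26.8% and 55.3%. GDF7 was up in neuroectoderm and down in hESCs, from 2.53 to 0.182 CPM (means, n = 3), and MIR4435-2HG, a long non-coding RNA, was down at day 5 and up in hESCs, from 9.12 to 19.1 CPM. In mHAR123 and HAR123-KO hESCs, GDF7 was at 0.137 and 0.199 CPM and MIR4435-2HG at 23.1 and 33.4 CPM. For both genes hHAR123 hESCs thus stood apart from each edited genotype. The median change in hESCs of the up-regulated genes was 0.31 over the 78 that were tested there, and of the down-regulated genes -0.54 over 71. An interaction term fitted to the 12 libraries compared the cHAR123 effect at both stages, in which 56 of 23329 genes were called with a more positive (0.24%) and 130 with a more negative effect (0.557%) at day 5. Of the 111 up-regulated genes 36 had a stage difference in the same direction and 0 in the other, and of the 97 down-regulated genes 29 and 2. These genes were chosen by the day-5 change, which is itself part of the interaction. The split by direction was therefore largely set by that choice.

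The gene lists of the dorsal neural tube were also read in hESCs, where 0 of 11 neural crest, 0 of 4 border and 0 of 7 midbrain, hindbrain and roof plate genes tested were called, with medians of 0.14, 0.1 and 0.12 and 4, 3 and 1 genes at an unadjusted p under 0.05 (edgeR), a level that 36.9% of all genes tested in hESCs passed. For FOXD3 the interaction was 2.57 (SE 0.12, adjusted p = 9.64e-22), for SOX10 1.46 (SE 0.14, adjusted p = 2.23e-11), for WNT4 1.5 (SE 0.27, adjusted p = 5.93e-05) and for RELN 2.44 (SE 0.29, adjusted p = 1.76e-08). PAX3 was at 0.00947 CPM in hHAR123 and 0.183 CPM in cHAR123 hESCs and BMP5 at 0 and 0.0615 CPM, too few counts to test there, and their interactions of -2.61 (SE 0.91, adjusted p = 0.0438) and -2.71 (SE 1.5, adjusted p = 0.242) were not called. The interaction of MAB21L2, a gene of eye development at 12.5, 13 and 10.4 CPM in hHAR123 and 27.8, 23.8 and 27 CPM in cHAR123 neuroectoderm, was not called either, at 3.67 (SE 1.95, adjusted p = 0.218). H1-1 was at 40.3, 40.4 and 37.5 CPM in hHAR123 and 37.9, 38.1 and 36.5 CPM in cHAR123 hESCs, so its loss was at day 5, with an interaction of -3.41 (SE 0.25, adjusted p = 1.41e-14). Another such gene was ENSG00000234352, a long non-coding RNA on chromosome 7, at 2.43, 2.19 and 2.48 CPM in hHAR123 and 0.4, 0.422 and 0.404 CPM in cHAR123 neuroectoderm and at 1.26 and 1.21 CPM in hESCs. XACT went the opposite way in hESCs, at 607 CPM in hHAR123 and 1036 CPM in cHAR123, with an interaction of -2.04. In mHAR123 and HAR123-KO hESCs it was at 1049 and 1016 CPM, near the cHAR123 level.

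Genes called alike at both stages with the smallest stage differences were ASPG, PGGT1B, ATP13A3-DT and TSPYL5. PGGT1B, a subunit of a prenyltransferase, was at 35, 31.3 and 31.3 CPM in hHAR123 and 15.1, 15.5 and 15.5 CPM in cHAR123 neuroectoderm and at 34.1, 32.3 and 32.9 and 17.2, 16.5 and 15.9 CPM in hESCs. The groups were apart at both stages, and the interaction was -0.03 (SE 0.08, adjusted p = 0.895). TSPYL5 was at 3.44, 2.89 and 3.38 CPM in hHAR123 and 16, 15.1 and 15.1 CPM in cHAR123 hESCs, with an interaction of 0.09 (SE 0.2, adjusted p = 0.829). ASPG changed by 1.13 in neuroectoderm and 1.16 in hESCs and ATP13A3-DT by -1.18 and -1.13, and both calls in neuroectoderm were lost in some of the fits without 1 library. Of the nearly lost genes, LINC01515 was at 18.4 and 0.522 CPM in hESCs, LINC01090 at 5.57 and 0.113 CPM and ZNF300 at 7.11 and 0.276 CPM, and their interactions had adjusted p values of 0.751, 0.786 and 0.654. H4C13 was also low in hESCs, at 72.7 and 1.74 CPM, with an interaction of -2.39 (SE 0.39, adjusted p = 1.17e-05).

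**Figure D5:**
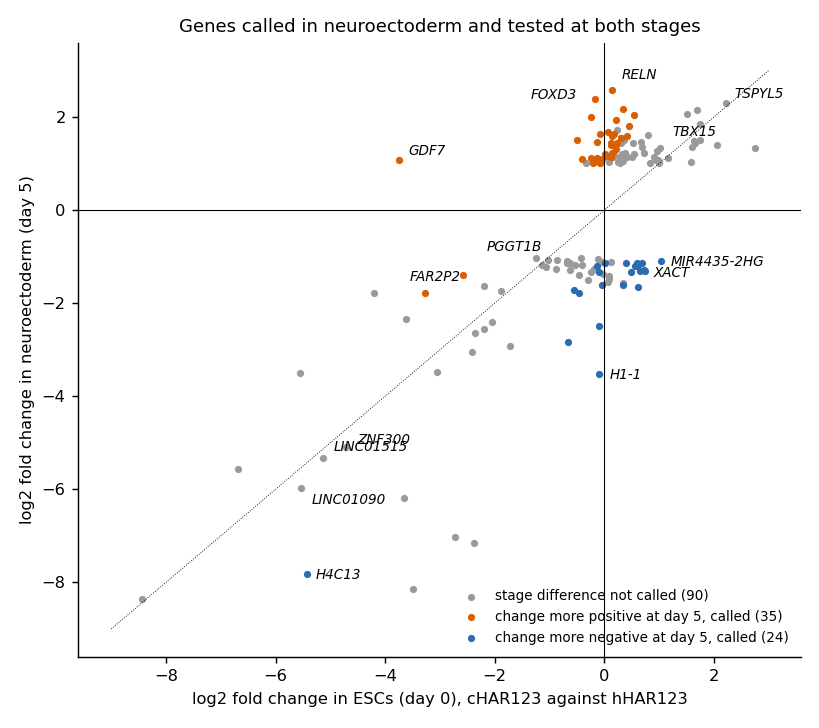
Each point is a gene called in neuroectoderm and tested at both stages, placed by its log2 fold change in hESCs (x) and in neuroectoderm (y), with equal changes on the dotted line. Of the 149 genes, 35 are coloured orange and 24 blue for a called stage difference, and FOXD3 and RELN are among those above 1 on y and near 0 on x, whereas LINC01515, LINC01090 and ZNF300 lie along the dotted line.

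Few genes separated cHAR123 from mHAR123 neuroectoderm, with 33 higher (0.156% of 21108 tested) and 22 lower (0.104%). Besides WNT4 at 1.02 (SE 0.11, adjusted p = 1.54e-09), the largest with a mean of at least 1 CPM and a symbol were NXF2, an X-linked RNA export gene, at 2.84 (SE 0.32, adjusted p = 5.49e-09), TCP11X1 at 1.76 (SE 0.24, adjusted p = 5.73e-07), ALG10B, a glycosylation enzyme gene, at 1.67 (SE 0.07, adjusted p = 2.73e-23), FOXE3, a factor of the lens, at 1.66 (SE 0.29, adjusted p = 4.21e-05), and CCDC169 at 1.62 (SE 0.2, adjusted p = 6.65e-08). ALG10B was at 28.1, 30.5 and 27.7 CPM in cHAR123, 28.9, 27.1 and 29 CPM in hHAR123 and 9.78, 8.57 and 8.31 CPM in mHAR123. For ALG10B, NXF2, TCP11X1 and CCDC169 the cHAR123 libraries overlapped those of hHAR123, and their change against hHAR123 was not called. NXF2 and TCP11X1 have near-identical copies and are uncertain. HPDL was lower in cHAR123, with a difference of -2.37 (SE 0.26, adjusted p = 1.63e-09), at 0.24, 0.634 and 0.762 CPM against 2.96, 2.4 and 2.85 CPM, and was at 0.666, 0.909 and 1.5 CPM in hHAR123. Of 14 neural crest genes tested between cHAR123 and mHAR123, 0 were called by edgeR, 8 were at an unadjusted p under 0.05 (19.1% of all genes), and 7 were lower in cHAR123 by the adjusted p alone (557 of all genes, 2.64%), among them SOX10 at -0.64 (SE 0.05, adjusted p = 6.92e-15) and TFAP2B at -0.49 (SE 0.05, adjusted p = 1.77e-09). Of 16 proneural and early neuronal genes, 8 were higher by the same measure (329 of all genes, 1.56%), with a median of 0.33.

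Called genes lay together at a few places, which were picked out after their values were seen. On chromosome 1, from 247937177 to 248063407 (GRCh38), 7 of 8 tested genes were up-regulated in cHAR123 neuroectoderm, namely ENSG00000289367 and 6 olfactory receptor genes and pseudogenes of the OR2L and OR2AK groups, with log2 fold changes of 1.26 to 2.61 and values of 0.538 to 1.6 CPM in cHAR123 and up to 0.951 CPM in hHAR123. Members of this group resemble each other closely, so that reads could be divided among them. OR2L6P was at 0.333, 0.124 and 0 CPM in hHAR123, 0.88, 0.634 and 0.628 CPM in cHAR123 and 0.0385, 0.0414 and 0.0865 CPM in mHAR123. Over all 35 olfactory receptor genes and pseudogenes tested, 6 were up-regulated and 1 down-regulated, with a median of -0.06. On chromosome 16, from 30096430 to 30111955, 3 of 3 tested genes were down-regulated, among them YPEL3-DT. On chromosome 2, FAR2P2, FAR2P3 and NF1P8 were down-regulated, 3 of 11 tested genes within 130416755 to 131198007, on chromosome 19 ZNF829 and the non-coding ENSG00000267605 and ENSG00000286449 were, 3 of 10 tested from 36888124 to 37309641, and on chromosome 21, 4 of 7 tested genes from 8205851 to 8433174 were. These 4 belong to 8 near-identical entries whose values were 2.43 to 3.35 CPM in hHAR123 and 0.92 to 1.61 CPM in cHAR123 and which cannot be counted separately. The 8 were all called, at log2 fold changes of -1.31 to -1.13, so the number of down-regulated genes holds this signal 8 times. The same is true of the down-regulated genes with a more negative effect at day 5. Median log2 fold changes by chromosome ran from -0.039 to 0.052.

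The 250 bases before the RefSeq start were compared by their CpG content and by the AP-2 motif GCCNNNGGC, a palindrome that reads the same on both strands. A symbol matched for 75 of the 111 up-regulated, 35 of the 97 down-regulated and 12774 of the 21275 tested genes. The median CpG count was 15 in up-regulated genes, 9 in down-regulated genes and 20 in all genes tested, and 11 over all 27305 promoters of the table. The motif was found in 18 of the 75 up-regulated (24%) and 4 of the 35 down-regulated promoters (11.4%). The shares were 27.3% of all tested promoters and 19.7% of the whole table. The up-regulated share was near that of the genes tested, and the down-regulated share rests on 4 promoters. Neither difference was tested. A match is a match of letters only, and the windows printed here held none.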

How the data were processed

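RNA from 24 libraries of H9 cells was sequenced with a directional kit. Per the submitters' processing notes the authors aligned reads to GRCh38 (an Ensembl annotation, per the methods) with STAR 2.5.2b and counted them per gene with featureCounts of Subread, and the deposited table holds raw counts, one column per library, whose name gives genotype, stage and replicate. Which strand option the counting used is not given in the sources used here. Of its entries, 61551 genes were used, 40850 of them with a symbol and coordinates in GENCODE 44, 15709 had no count in any library, and 3 lines of a broken entry (ANK2) were left out. Levels are CPM of the library's total count. All 24 column names matched a library.

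Each comparison was fitted on its own libraries with edgeR 4.0.16 in R 4.3.3 (filterByExpr, TMM, quasi-likelihood test, two-sided), with Benjamini-Hochberg adjustment over all genes tested, and calls needed both an adjusted p below 0.01 and a log2 fold change beyond 1 in size. SE is the log2 fold change over the square root of F. A gene with at most 3 counts in every library of a group is given by a bound against 3 counts per library. The bound is a ratio of means and not an interval, and it covers neither counting error nor the spread between libraries. DESeq2 1.42.0 was an alternative, as were its size factors, no filter on low counts, an adjusted p under 0.05, the replicate number as a block, all 12 neuroectoderm libraries in 1 fit, the libraries labelled mHAR123 in place of cHAR123 and leaving out each library. The fits were tested on simulated data.

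Genes are named by rule: the 10 largest called changes in each direction with a mean of at least 1 CPM, called members of the gene lists, the 4 largest and smallest stage differences, the 5 largest differences from mHAR123 in each direction, and SMG6 and HIC1. Other members of the lists are given as values, and some genes were taken out of the lists and are not reported here. The comparison, the lists and the rule were chosen with earlier results of these data known. Promoter windows are from RefSeq (GRCh38.p14).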

Additional observations from a re-analysis of the deposited data

Results flagged for a closer look

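In 26 genes named in the report, the effect of the cHAR123 replacement differed between neuroectoderm and hESCs by the interaction test (edgeR quasi-likelihood test, Benjamini-Hochberg adjustment), and the values that follow are the log2 fold change at day 5 minus that in hESCs. The effect was more positive at day 5 for the transcription factor genes HELT (6.62), FOXD3 (2.57), PAX7 (2.28), SOX10 (1.46) and ETS1 (1.28). It was so for the signalling genes GDF7 (4.81), APCDD1 (2.01), WNT4 (1.5) and BMP2 (1.22), and for the helix-loop-helix inhibitor gene ID3 (1.06). Surface, matrix and cytoskeletal genes with a more positive effect were RELN (2.44), KANK4 (1.84), UNC5C (1.72), ADAMTS15 (1.64), COL11A2 (1.35), COL5A3 (1.1) and HAS2 (1.04). The pseudogenes FAR2P2 and FAR2P3, which have close copies, had differences of 1.49 and 1.19. A more negative effect at day 5 was found for H1-1 (-3.41), H4C13 (-2.39), ENSG00000234352 (-2.39), MIR4435-2HG (-2.12), XACT (-2.04), CAT (-5.69) and SLC5A12 (-1.15). HELT and PAX7 are close to 0 in hESCs and CAT is close to 0 in cHAR123 neuroectoderm, so the size of their differences depends on the prior count of the fit.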

How the results depend on the processing

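Counts of genes up-regulated and down-regulated in cHAR123 neuroectoderm, 111 and 97, were 96 to 120 and 86 to 92 when 1 library was left out, 111 and 96 with DESeq2 size factors, 131 and 123 with no filter on low counts, 121 and 95 in 1 fit of all 12 neuroectoderm libraries, and 146 and 136 at an adjusted p under 0.05. DESeq2 called 71 and 44. Of the 208 genes, it called 114, gave 92 an adjusted p that is missing and 2 one at or over the threshold, and 0 were reversed. DESeq2 also called 50 and 23 genes in hESCs, 7 and 7 between cHAR123 and mHAR123, and 119 with a stage difference. At an adjusted p under 0.05, 208 genes were up-regulated in hESCs, 35 were lower in cHAR123 than in mHAR123, and 377 had a stage difference. Without 1 library the counts were 94 to 123 and 46 to 55 in hESCs, 25 to 31 and 17 to 23 against mHAR123, 746 to 789 and 807 to 853 against HAR123-KO, 159 to 182 for the stage difference, and 44 to 46 for list members. Of 63 named genes called, 12 lost their call without some library: ASPG, ATP13A3-DT, FOXE3, GDF10, HIC1, ITGA9, LAMA4, MSX2, SLFN12, WNT10B, ZIC1 and ZNF829. PAX3 gained a called stage difference at an adjusted p under 0.05 (-2.61). The highest chromosome median was 0.032 to 0.065 without 1 library, the lowest value being without hHAR123 replicate 1. The cause was not tested.

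The replicate numbers of cHAR123 and hHAR123 neuroectoderm did not pair the libraries (correlations of their deviations -0.04, -0.15 and 0.06, none of them best with its own number). With the number as a block, 115 and 97 genes were called, of which 111 and 96 were the same genes, and the block gave 126 and 47 in hESCs, 28 and 19 against mHAR123, 789 and 827 against HAR123-KO and 170 for the stage difference.

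With the libraries labelled mHAR123 in place of those labelled cHAR123, 128 and 91 genes were called against hHAR123, and, as settings added after seeing the data, 216 for the stage difference, while both counts against HAR123-KO moved by under 1.5 times. The sign was then reversed against hHAR123 for H4C13 (0.22), LINC01090 (0.40), H3C11 (0.23), NXF2 (-2.59), TCP11X1 (-1.75), ALG10B (-1.63), FOXE3 (-0.51), TCEAL5 (2.61) and HPDL (1.45), 15 further named genes lost their call and 1 gained one. Called list members were then 2 in place of 6 for the neural plate border and 1 in place of 3 for WNT ligands. They were 0 in place of 1 for forebrain and eye field and 1 in place of 3 for histones. Other lists had more, with 9 in place of 7 for neural crest and 4 in place of 2 for axon guidance. Which label is right could not be settled from these counts. Genes under about 1 CPM rest on few counts, and with 3 libraries a group the calls near the fold limit move with 1 library.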
